A study of Mus musculus with 9 samples.

Results

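Classical inflammatory monocytes of the mouse liver were described here as the cells that carried the transcripts of these monocytes in droplet-based 3′ single-cell RNA-seq. A cell was selected on 11 genes: it had at least 200 detected genes, at least 1 count in 3 or more of Chil3, F13a1, Fn1, Ly6c2 and Ccr2, fewer than 5 counts of C1qa, C1qb and C1qc together, and 0 counts of Cd3e, Cd79a and Siglech. Counts were of unique molecular identifiers (UMIs), so that copies of 1 transcript molecule were counted once. Of 8527 cells with 200 or more genes, 401 met the rule, which was 4.70%. They were 36 cells in WT, 97 in YAP3d and 268 in YAP7d livers. The levels of the 11 genes chose the cells, so they are given as a description, with no test.

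Classical monocytes leave the bone marrow with the help of Ccr2, the receptor of the chemokine Ccl2, circulate in the blood and enter injured or inflamed tissue, where they can turn into macrophages. Ly6c2 encodes a surface antigen by which these cells are recognised, Chil3 a secreted chitinase-like protein, F13a1 the catalytic subunit of a clotting factor, and Fn1 the matrix protein fibronectin. In the liver they lie beside Kupffer cells, the resident macrophages, which make much complement C1q, and beside patrolling monocytes, which have little Ly6c2 and move along the vessel wall.

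The 9 libraries came from livers of C57BL/6 mice. The 2 WT libraries had the genotype ROSA26-rtTA-IRES-EGFP; WT, and these mice ate doxycycline food for 7 days. The 4 YAP3d and 3 YAP7d libraries had the genotype ROSA26-rtTA-IRES-EGFP; tetYAP, with doxycycline food for 3 days (acute induction) and 7 days (tonic induction). rtTA is the doxycycline-controlled transactivator, and tetYAP is a constitutively active YAP that it switches on. Per the study's methods rtTA was released by Alb-Cre, which acts in hepatocytes, so the induction was not directed at monocytes, and the cell preparation was made for cells other than hepatocytes. All mice carried rtTA and received doxycycline. Between YAP3d and WT the transgene and the time on doxycycline cannot be told apart. The labels do not say whether replicates were litter mates or were prepared on the same day, so p-values measure the spread between these libraries.

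Depth followed the groups. The median of UMIs per cell was 7546, 5717 and 11471.5 in the 3 YAP7d libraries and 3231 to 5083 in the 6 WT and YAP3d libraries, and the shallowest cell had 2461, 2443 and 4041 UMIs against 822 to 1734. Depth over all cells and induction for 7 days therefore cannot be told apart in comparisons with YAP7d. YAP7d 3 held 48.4% of the monocytes. Within the monocytes depth was closer, with medians of 7777 to 10340 UMIs and 1973 to 2734 genes per library, and mitochondrial counts had medians of 1.59 to 2.23%. Gm10709, a predicted gene used here only to compare libraries, was at 347 to 611 counts per 1000000 UMIs in all cells of YAP3d 1, YAP3d 2 and the 3 YAP7d libraries, and at 3.65 to 11.2 in both WT libraries, YAP3d 3 and YAP3d 4. This split was not adjusted for in the fit of genes below. A term tried there marked libraries with any Gm10709 count in their monocytes, and of the libraries tested only WT 1 had 0. Both WT libraries were low and the 3 YAP7d libraries high. This split and the difference between YAP7d and WT therefore cannot be told apart. YAP3d 3 and YAP3d 4 stood with WT in this gene and not with the libraries of their own label. Yap1 had 0 counts in the monocytes of every library, so the transgene could not be seen in these cells. Over all cells 46 barcodes occurred in 2 or more libraries, 2 of the 401 monocytes had such a barcode, and no barcode was shared among monocytes.

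The 5 genes of the rule chose the cells, and their detection describes the selection. At full depth 94.0% of the 401 cells had a count of Ly6c2, 92.3% of Ccr2, 89.8% of Chil3, 69.3% of Fn1 and 61.8% of F13a1. To compare with cells that should lack these transcripts, monocytes and sinusoidal endothelial cells were thinned to 2000 UMIs each, from median depths of 9607 and 4107 UMIs. Cells that met the rule were left out of the endothelial cells, so the low shares of the 5 genes there are in part set by this. Chil3 was then found in 76.6% of the monocytes and 2.05% of the endothelial cells. Over the endothelial cells of single libraries its share ran from 0% to 10% in 8 libraries and was 26.7% in YAP7d 3, where 82.0% of the monocytes had it. Over all libraries Ly6c2 was found in 74.1 and 5.15%, Ccr2 in 54.8 and 3.74%, Fn1 in 40.2 and 2.12%, and F13a1 in 35.4 and 0.353%. Lyz2, which encodes lysozyme and was not part of the rule, was found in 96.0 and 35.2%. At full depth 166 cells had all 5 genes, 98 had 4 and 137 had 3.

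The rule cut through a continuum. Lyz2 stood at 292 counts per 10000 UMIs in cells with 5 of the genes, 194 in cells with 4 and 104 in cells with 3. A further 298 cells had 2 of the 5 genes and met the other limits, and Lyz2 was at 35.3 in them. Another 544 cells had 3 or more of the genes but 5 or more C1q counts, and 484 of these were in YAP7d 3. Of them, 215 had 5 to 9 C1q counts, just past the limit, and 204 were in YAP7d 3. The limit on Cd3e, Cd79a and Siglech removed 168 cells, of which 79 were in YAP7d 3, 55 in YAP3d 4 and 22 in WT 2. C1q counts were 0 in 88 of the 401 monocytes and 1 to 4 in 313, and in YAP7d 3 they were 0 in 2 of 194.

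The monocytes were set beside other myeloid cells of the same livers. Levels below are counts per 1000000 (CPM) of the summed UMIs of a class over all libraries. Ly6c2 was at 1454 CPM in the 401 monocytes, 198 in 1035 C1q-high macrophages (10 or more C1q counts) and 187 in 130 patrolling monocytes (3 or more of Ace, Treml4, Cd300e, Eno3 and Adgre4). F13a1 was at 295, 40.9 and 2.51 CPM in the same order, and Chil3 at 5866, 558 and 1280 CPM. These 3 genes were part of the rule for the monocytes, so their lower levels in patrolling monocytes are in part set by it. Of genes that no class was chosen on, Clec4f and Vsig4, which mark Kupffer cells, were at 28.5 and 17.9 CPM in the monocytes and 1192 and 776 CPM in the C1q-high macrophages. Plac8, a gene of circulating monocytes, was at 5423 CPM in classical and 4743 CPM in patrolling monocytes, and Cx3cr1, the fractalkine receptor that patrolling monocytes are known for, was at 124 and 184 CPM.

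Many of the 401 cells also carried transcripts of other cell types. By limits set after the data were seen, 86 (21.4%) had 3 or more of the patrolling genes named above, 47 had 3 or more neutrophil genes (Retnlg, Csf3r, Cxcr2, Mmp9 and S100a8), 38 had 4 or more T or NK cell genes, 31 had 3 or more dendritic cell genes and 39 had 4 or more endothelial genes. In all 200 cells carried at least 1 such set and 201 carried none. Of the 47 with neutrophil genes 42 were in YAP7d 3, and of the 39 with endothelial genes 16 were among the 31 monocytes of WT 2 and 21 among the 28 of YAP3d 4. The summed level of the 12 neutrophil genes was 98.4 to 419 CPM in 8 libraries and 16977 CPM in YAP7d 3. That of the 12 endothelial genes was 1377 CPM in WT 2, 1347 in YAP3d 4 and 29.98 to 279 in the other libraries. The 11 T and NK genes summed to 4244 CPM in YAP7d 2 and 2197 in YAP7d 3, against 30.9 to 1309 in the others. The 12 hepatocyte genes summed to 164 to 435 CPM, and Alb was at 0 to 32.8 CPM.

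**Figure D1:**
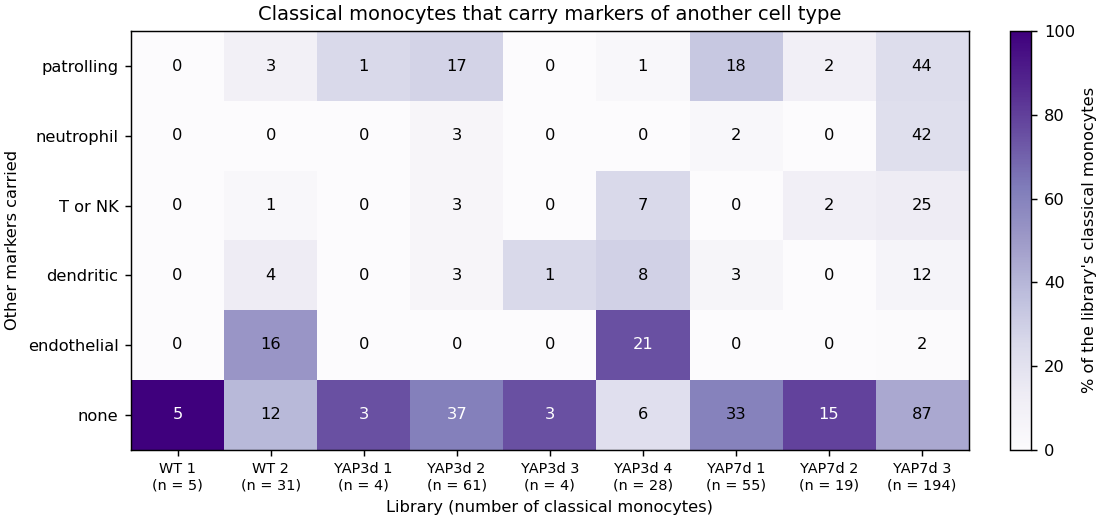
Share of each library's classical monocytes (colour, in %) that carried markers of another cell type (rows), with libraries and their number of monocytes on the x axis. Endothelial genes were carried in WT 2 and YAP3d 4, and neutrophil genes in YAP7d 3.

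These transcripts can be cells of mixed type, pairs of cells or free RNA in a droplet, and their part in the results was not tested. The same 5 genes were counted in T cells. T cells can make Ly6c2 and Ccr2 themselves, so their share with 3 or more of the genes is not a measure of free RNA alone. In 8 libraries 0 to 2.61% of the T cells had 3 or more of the 5 genes, and in YAP7d 3 26.0% had them. After thinning to 2000 UMIs the values were 0 to 1.69% and 3.35%. C1q, which T cells are not known to make, was at 30.2 counts per 10000 UMIs in the T cells of YAP7d 3, at 20.04 in those of YAP7d 2 and at 0.229 to 4.32 in the others. S100a8 and S100a9, neutrophil alarmins, were together at 142 counts per 10000 UMIs in the monocytes of YAP7d 3 and at 0 to 2.75 in those of the other 8 libraries. A doublet caller marked 60 of the 8527 cells (0.704%), 3 of them monocytes.

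The share of monocytes did not separate the groups. In WT livers 0.960 and 2.19% of the cells were classical monocytes, a mean of 1.57 ± 0.869% (SD, n = 2). In YAP3d livers the values were 1.42, 13.8, 0.948 and 1.10%, a mean of 4.32 ± 6.33% (SD, n = 4). In YAP7d livers they were 9.18, 4.12 and 10.6%, a mean of 7.96 ± 3.40% (SD, n = 3). All 3 YAP7d livers lay above both WT livers and above 3 of the 4 YAP3d livers, while YAP3d 2 had the highest value of all. An exact permutation test over the 3 groups gave p = 0.391 (0.587 after Benjamini-Hochberg adjustment over 3 readouts). YAP7d was 6.39 percentage points above WT with a two-sided exact permutation p of 0.2, where 0.1 is the smallest p that 3 against 2 libraries can give. YAP3d was 2.74 points above WT (exact permutation p = 0.867) and YAP7d 3.64 points above YAP3d (exact permutation p = 0.429). With all cells thinned to 2000 UMIs YAP7d 3 was highest, at 15.8%, and YAP3d 2 was at 8.58%, and the means were 1.65% in WT, 3.00% in YAP3d and 8.67% in YAP7d livers (exact permutation p = 0.172). YAP3d was then 1.35 points above WT and YAP7d 5.67 above YAP3d. Without YAP3d 2, at full depth, the exact permutation p over the groups was 0.0571. Without carriers of other markers the means were 0.904, 2.60 and 4.50% and the exact permutation p was 0.413. The share hung on the C1q limit. With C1q counts of 0 the means were 0.580% in WT, 2.78% in YAP3d and 0.938% in YAP7d livers (exact permutation p = 0.817), and YAP7d 3, at 0.109%, was below both WT livers, at 0.384 and 0.777%. With no C1q limit the means were 1.79, 5.12 and 19.2% in the same order (exact permutation p = 0.124). A share also falls when other cells are more numerous, and fewer cells of a type cannot be told apart from fewer of them recovered.

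**Figure D2:**
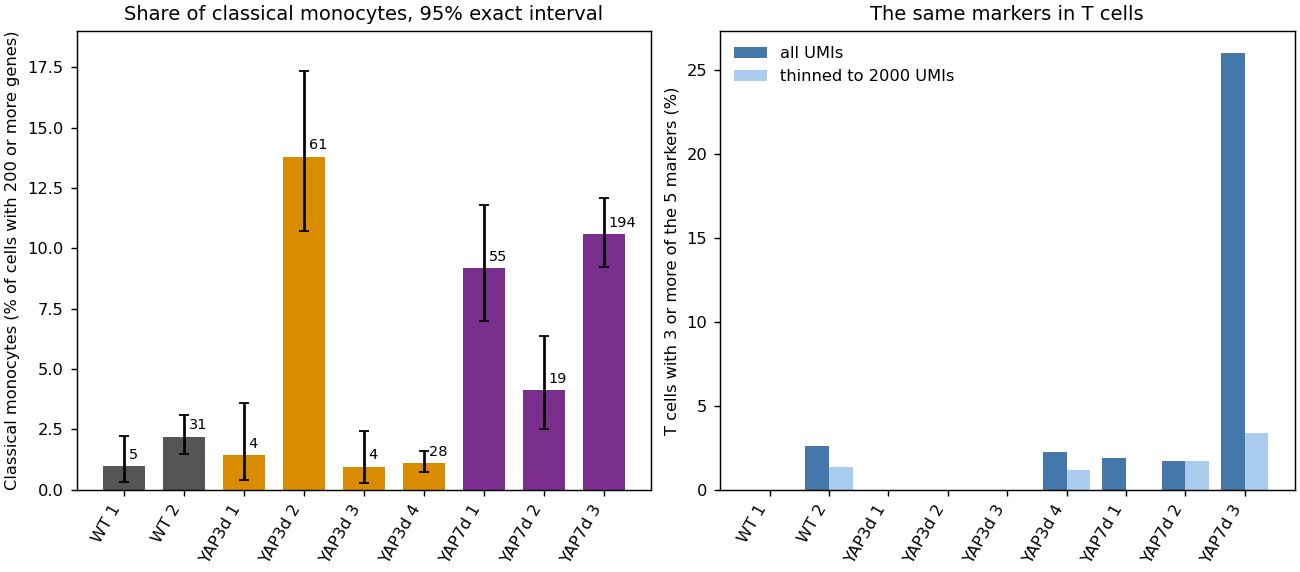
Left, classical monocytes in % of the cells with 200 or more genes, per library, with 95% Clopper-Pearson intervals of the counting error. Right, % of T cells with 3 or more of the 5 genes, at full depth and thinned to 2000 UMIs. YAP3d 2 (13.8%), YAP7d 3 (10.6%) and YAP7d 1 (9.18%) had the highest shares, and YAP7d 3 the highest share of such T cells (26.0%).

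Set against the C1q-high macrophages of the same liver, the number of monocytes did not separate the groups. There were 20 and 44.9 monocytes per 100 C1q-high macrophages in WT, 40, 102, 14.3 and 45.2 in YAP3d, and 35.9, 9.74 and 44.8 in YAP7d livers. The groups overlapped over most of their range. The means of log2 of the ratio were -1.68, -1.25 and -1.98, with an exact permutation p of 0.665 over the 3 groups. This readout hung on the C1q limit. With no limit the difference between YAP7d and WT turned from -0.31 to 1.16, and with C1q counts of 0 it was -2.57, where the exact permutation p over the 3 groups was 0.0373. The difference also turned without WT 2, to 0.23, and without YAP7d 2, to 0.37.

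The test of genes used counts summed over the monocytes of a library. It took the 7 libraries with 5 or more of them, WT 1 and 2, YAP3d 2 and 4, and YAP7d 1 to 3, and 3774 genes. Between YAP7d and WT edgeR called 0 genes (0%) at an adjusted p of 0.05, although 276 had an unadjusted p below 0.05. Between YAP3d and WT it called 0 (0%), with 139 below 0.05 unadjusted, and between YAP7d and YAP3d 0 (0%), with 114. DESeq2 on the same sums called 15 of 3774 genes (0.397%) between YAP7d and WT, 1 higher and 14 lower, and 0 in the other comparisons. The median log2 fold change of all genes was 0.03, 0.04 and -0.02 in the 3 comparisons. Over the 7 libraries the groups did not overlap for 29.3, 31.0 and 17.0% of all genes tested, and counts of genes without overlap below are over the same libraries. Levels in CPM are from here on those of the summed monocytes of each library, in the order of the replicate numbers. Lists below are described by their counts beside these values, and since YAP7d and YAP3d were both set against the same 2 WT libraries, agreement between those 2 comparisons is not independent. The sum of WT 1 rests on 5 cells and 35816 UMIs, in which 3 counts make 83.8 CPM. Genes of other cell types differed in these sums. Between YAP7d and WT 10 endothelial genes had a median of -2.88. Without WT 2 it was -0.061 over 12 genes, beside a median of all genes of 0.39. The 4 T and NK cell genes tested had a median of 0.97, which was -0.021 without YAP7d 2, and 5 neutrophil genes had a median of 5.86 (4.88 with a group at 0 set to its bound), which was -0.21 without YAP7d 3. Their part in the results below was not tested. In sums of this kind fewer cells with a transcript and less of it per cell cannot be told apart.

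Genes that interferon gamma induces were lower in both induced groups than in WT. Of 18 genes in the list 7 could be tested, and all 7 had a negative log2 fold change between YAP7d and WT (median -1.45) and between YAP3d and WT (median -1.56), with 0 called by edgeR. For 5 of the 7 the YAP7d and WT libraries did not overlap, and for 4 the YAP3d and WT libraries. Between YAP7d and YAP3d 3 were higher and 4 lower (median -0.45). The medians without carriers of other markers were -1.36, -1.33 and -0.17, and without WT 1 they were -1.26, -1.38 and -0.38. The promoters of the 4 members with the highest levels are shown because each holds at least 1 of the 2 motifs through which interferons are known to act.

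The 2 motifs were searched on both strands in the 300 bases from 250 before to 50 after the start of the RefSeq transcript (GRCm38.p6): the STAT site GAS, TTCNNNGAA, found in 2288 of 27025 promoters (8.47%), and the interferon response element ISRE, GAAANNGAAA, found in 943 (3.49%). Of 12 promoters of the interferon gamma list 7 held a GAS match and 10 an ISRE match, and of 23 of the type I interferon list 3 and 13. Capitals mark the matches, and overlapping matches run together.
Gbp2, chr3:142620413-142620712, plus strand: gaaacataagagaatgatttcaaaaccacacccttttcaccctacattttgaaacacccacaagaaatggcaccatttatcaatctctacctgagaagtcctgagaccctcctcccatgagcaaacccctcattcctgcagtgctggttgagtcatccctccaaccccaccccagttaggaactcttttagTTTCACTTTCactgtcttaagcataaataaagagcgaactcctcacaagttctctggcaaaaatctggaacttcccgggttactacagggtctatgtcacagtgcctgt
Irf1, chr11:53769764-53770063, plus strand: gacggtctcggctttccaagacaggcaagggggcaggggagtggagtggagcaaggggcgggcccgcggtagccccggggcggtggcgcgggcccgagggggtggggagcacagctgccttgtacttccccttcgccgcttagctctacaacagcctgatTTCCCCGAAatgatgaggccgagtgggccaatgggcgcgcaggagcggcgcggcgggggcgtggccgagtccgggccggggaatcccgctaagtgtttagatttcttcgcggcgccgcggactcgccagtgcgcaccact
Irgm1, chr11:48871371-48871670, minus strand: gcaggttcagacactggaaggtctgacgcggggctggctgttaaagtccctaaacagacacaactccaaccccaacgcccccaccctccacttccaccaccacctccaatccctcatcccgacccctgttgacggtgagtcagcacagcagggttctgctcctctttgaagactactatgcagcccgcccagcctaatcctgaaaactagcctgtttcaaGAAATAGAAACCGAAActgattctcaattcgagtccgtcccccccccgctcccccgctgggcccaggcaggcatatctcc
Igtp, chr11:58199306-58199605, plus strand: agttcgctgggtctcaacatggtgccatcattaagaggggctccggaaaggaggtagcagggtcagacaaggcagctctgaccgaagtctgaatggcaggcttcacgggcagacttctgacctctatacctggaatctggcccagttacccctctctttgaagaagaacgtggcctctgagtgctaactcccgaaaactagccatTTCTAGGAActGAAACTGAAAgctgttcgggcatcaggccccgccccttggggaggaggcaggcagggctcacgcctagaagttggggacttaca
Gbp2 held 1 ISRE match, 59 bases before the start. Irf1 held 1 GAS match, 90 bases before it. Irgm1 held 2 ISRE matches that share bases, and Igtp a GAS and an ISRE match. A match is a description and not a bound site.

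Irf1 encodes a transcription factor induced by interferon gamma. It was at 307 and 190 CPM in WT, at 98.4, 51.1, 30.9 and 79.7 in YAP3d, and at 75.3, 65.9 and 88.3 in YAP7d livers. Both WT libraries lay above all 7 others, and the log2 fold change was -1.49 ± 0.37 (SE) for YAP7d and -1.87 ± 0.42 for YAP3d against WT (edgeR adjusted p = 0.277 and 1). Between YAP7d and YAP3d the log2 fold change of Irf1 was 0.38 ± 0.36. It was found in 2, 19, 1, 21, 1, 10, 22, 8 and 91 monocytes of the 9 libraries in that order. In WT 1 10 of its 11 counts came from 1 cell, and in WT 2 at most 10 of 45 did. Without WT 1 its log2 fold changes against WT were -1.26 for YAP7d and -1.65 for YAP3d.

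Gbp2, a GTPase that attacks the vacuoles of intracellular pathogens, was at 1089 and 211 CPM in WT, at 65.6, 178, 92.6 and 35.9 in YAP3d, and at 71.2, 29.98 and 17.0 in YAP7d livers. Both WT libraries were again above the others, with a log2 fold change of -3.84 ± 0.78 for YAP7d against WT (edgeR adjusted p = 0.212, DESeq2 adjusted p = 0.0499). In WT 1, however, 38 of its 39 counts came from 1 cell, and in YAP3d 2 73 of 108. Without WT 1 the log2 fold change was -2.53. Irgm1, a GTPase of the same defence, was at 251 and 165 CPM in WT, 32.8 to 154 in YAP3d and 32.9 to 132 in YAP7d livers (-1.45 ± 0.54, edgeR adjusted p = 0.551). Igtp, a related GTPase, was at 223 and 50.7 CPM in WT, 30.9 to 98.4 in YAP3d and 13.5 to 73.2 in YAP7d livers, so that the groups overlapped.

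Genes that type I interferon induces lay the same way with smaller median changes, and the difference between the 2 lists was not tested. Of 25 of the 32 that could be tested, 23 were lower and 2 higher in YAP7d than in WT (median -0.67). Of the 25, 8 (32%) did not overlap, near the 29.3% of all genes. In YAP3d 24 were lower and 1 higher than in WT (median -0.69). There 14 (56%) did not overlap, 13 of them lower, against 31.0% of all genes. In both comparisons 0 were called. Without WT 2 the medians were -0.11 and -0.15, beside medians of all genes of 0.39 and 0.41. Without WT 1 they were -0.59 and -0.61, beside 0.05 and 0.04. Ifi27l2a, a mitochondrial protein of this response, was at 4216 and 4118 CPM in WT, at 1914 to 5677 in YAP3d and at 1637 to 5162 in YAP7d livers, and the groups overlapped. Ly6e, a surface protein that limits viral entry, was at 2122 and 2707 CPM in WT, 1423 to 2658 in YAP3d and 1133 to 1984 in YAP7d livers (-0.61 ± 0.29 for YAP7d against WT, edgeR adjusted p = 0.713). Ifi204, a DNA sensor of the Ifi200 family, was at 1284 and 363, 291 to 833 and 176 to 435 CPM. Oas1a, which makes the messenger that activates RNase L and was chosen after its values were seen, was at 195 and 258 CPM in WT, at 131, 135, 123 and 99.7 in YAP3d, and at 81.4, 71.9 and 70.8 in YAP7d livers. No group overlapped with another for Oas1a, and its log2 fold change between YAP7d and WT was -1.66 ± 0.29 (edgeR adjusted p = 0.127). It was found in 50.6% of the monocytes, and at most 3 of the 7 counts in WT 1 came from 1 cell.

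**Figure D3:**
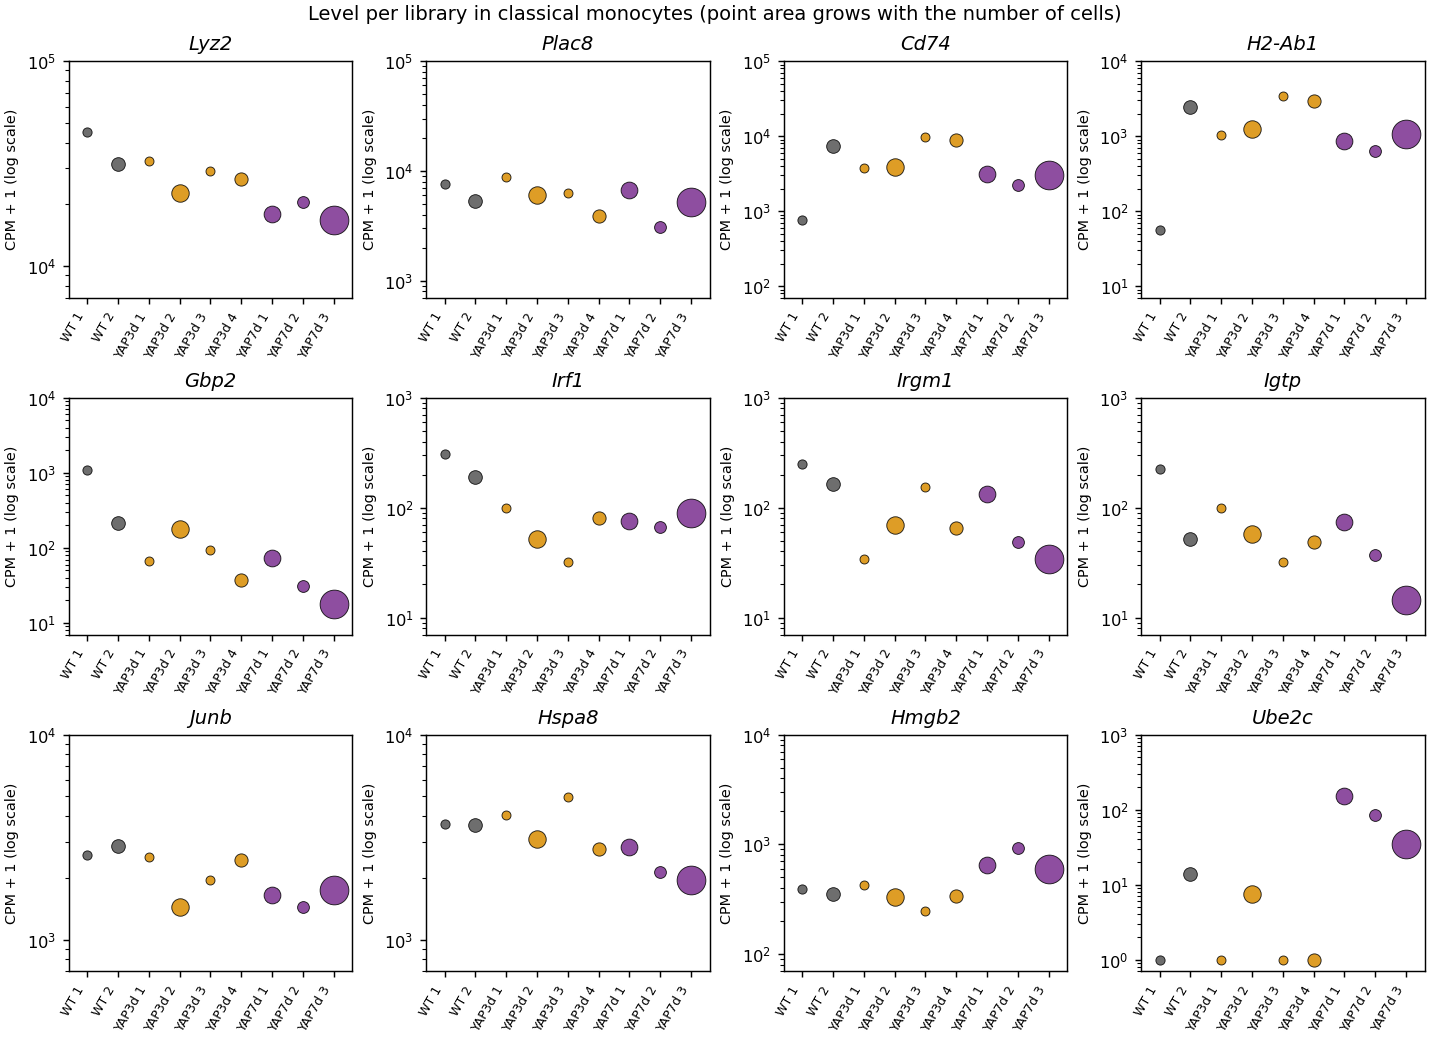
Level of 12 genes in the summed monocytes of each library (y axis, CPM + 1 on a log scale; x axis, libraries; point area grows with the number of monocytes). Irf1 and Gbp2 were highest in both WT libraries, H2-Ab1 was at 55.8 CPM in WT 1 and 2471 CPM in WT 2, and Hmgb2 was highest in the 3 YAP7d libraries. Ube2c entered the test of genes only through YAP7d libraries and is shown as a description.

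The 15 genes that DESeq2 called between YAP7d and WT held 5 further members of these responses: Ifi203, Ifi205 and Mnda of the Ifi200 family, Ly6i, and Socs1, an inhibitor of interferon signalling. All of them were named after their values were seen. Ifi205 was at 1480 and 211 CPM in WT, 90.7 to 154 in YAP3d and 6.00 to 73.2 in YAP7d livers, with a DESeq2 log2 fold change of -4.59 ± 1.17 (DESeq2 adjusted p = 0.0337), but 51 of the 53 counts in WT 1 came from 1 cell. Serpina3g, a protease inhibitor, was at 530 and 249 CPM in WT and 11.99 to 50.4 in YAP7d livers (DESeq2 adjusted p = 2.21e-05, edgeR adjusted p = 0.121). With 4 of the 5 genes of the rule required, WT 1 dropped out with 4 cells and WT 2 stood alone in WT. The edgeR log2 fold change of Serpina3g then turned to 1.16. All 19 of its counts in WT 1 and 49 of 59 in WT 2 came from 1 cell each. Il1rn, the antagonist of the interleukin-1 receptor, had 34 counts in WT 1, all in 1 cell, and 25 in WT 2, of which 20 were in 1 cell. Those made 949 and 106 CPM, against 6.00 to 20.4 CPM in YAP7d livers (DESeq2 adjusted p = 0.00363, edgeR adjusted p = 0.123). The chemokine Cxcl10, which neither tool called, had all 77 counts of WT 1 in 1 cell. For the other members the largest count from 1 cell was 25 of 35 in WT 1 and 10 of 85 in WT 2 for Ifi203, 24 of 35 and 10 of 91 for Mnda, 2 of 4 and 32 of 74 for Ly6i, and 6 of 6 and 7 of 19 for Socs1.

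The remaining DESeq2 calls were Atf3, Gbp2, Lyz2, Fam26f, Rbm3, and Gm9843, Gm9844 and Rpl10-ps3, whose names mark predicted genes or pseudogenes that can share reads with related genes and are uncertain. Rbm3, an RNA-binding protein induced by cold, was the 1 higher gene. It was at 363 and 473 CPM in WT, at 591, 696, 525 and 634 in YAP3d, and at 973, 1217 and 1406 in YAP7d livers, with no overlap between any 2 groups (DESeq2 log2 fold change 1.47 ± 0.36, adjusted p = 0.0247, edgeR adjusted p = 0.212). It was found in 393 of the 401 monocytes. Atf3, a stress-induced repressor of inflammatory genes, was at 921 and 807 CPM in WT, 531 to 1574 in YAP3d and 222 to 476 in YAP7d livers (DESeq2 adjusted p = 0.0356, edgeR adjusted p = 0.222).

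Among the genes that mark classical monocytes, Lyz2 was lower in the YAP7d livers. It was at 45259 and 31374 CPM in WT, at 32618, 22733, 29128 and 26718 in YAP3d, and at 17882, 20593 and 16762 in YAP7d livers. The 3 YAP7d libraries lay below all 6 others, and the log2 fold change against WT was -1.02 ± 0.22 (edgeR adjusted p = 0.212, DESeq2 adjusted p = 0.0356). Of the 22 marker genes tested 7 were higher and 15 lower in YAP7d than in WT (median -0.34), and 12 higher and 10 lower in YAP7d than in YAP3d (median 0.01), with 0 called by edgeR. Plac8 was at 7622 and 5339 CPM in WT, 3919 to 8860 in YAP3d and 3099 to 6765 in YAP7d livers. S100a6, a calcium-binding protein, was at 3323 and 2733, 1944 to 3825 and 3273 to 3955 CPM. Cebpb, a transcription factor of monocyte development, was at 3406 and 2357, 1820 to 2654 and 2176 to 2777 CPM. For these 3 genes the groups overlapped or differed by less than 0.4 on the log2 scale. Of 13 genes of patrolling monocytes 7 were higher and 6 lower in YAP7d than in WT (median 0.03), and Nr4a1, the factor these cells depend on, was at 530 and 667 CPM in WT, 486 to 638 in YAP3d and 438 to 604 in YAP7d livers.

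Genes of antigen presentation on MHC class II differed widely between the 2 WT libraries. Cd74, the invariant chain, was at 754 and 7430 CPM in WT, at 3708, 3886, 9843 and 8970 in YAP3d, and at 3127, 2224 and 3030 in YAP7d livers. H2-Ab1, a class II chain, was at 55.8 and 2471, at 1050, 1230, 3425 and 2954, and at 863, 629 and 1056 CPM. The 3 YAP7d libraries were close to each other, and the 2 WT libraries enclosed all the others for H2-Ab1 except YAP3d 3 and YAP3d 4. H2-Aa and H2-Eb1 followed, with 27.9 CPM in WT 1 and 2015 and 1677 in WT 2. All 8 genes tested were lower in YAP7d than in YAP3d (median -1.13) and than in WT (median -0.65), with 0 called. The difference from YAP3d did not hold without 1 library or without the carriers: 78.6% of the H2-Ab1 counts lay in the 200 carriers of other markers, the median without them was 0.05 over 6 genes, and without YAP3d 4 it was 0.09 over 9. Without WT 1 the median between YAP7d and WT was -1.30, and without WT 2 it was 4.50, beside a median of all genes of 0.39. Cd209a, a lectin of monocyte-derived dendritic cells, was at 526.2 CPM in YAP3d 4 and 0 to 92.6 in the other libraries, and 99.1% of its counts were in carriers. MHC class I genes had medians of -0.32 in YAP7d and -0.17 in YAP3d against WT over 15 genes. B2m, the class I light chain, was at 7594 and 7459 CPM in WT, 4521 to 6990 in YAP3d and 4754 to 6930 in YAP7d livers, so that both WT libraries lay above the others (-0.36 ± 0.23 and -0.60 ± 0.25, edgeR adjusted p = 0.798 and 1).

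The mean share of monocytes with transcripts of the cell cycle was highest in YAP7d livers at a depth of 2000 UMIs, with overlap between YAP7d and YAP3d and without a difference that passed the test. After thinning to 2000 UMIs, 0 of 5 and 4 of 31 monocytes in WT had 3 or more of 53 S phase, G2 and mitosis genes, which was 0 and 12.9%. The shares were 18.6 and 21.4% in YAP3d 2 and YAP3d 4, and 18.2, 36.8 and 28.9% in the YAP7d libraries. The 4 monocytes of YAP3d 1 and the 3 deep enough in YAP3d 3 were too few to be tested. The exact permutation p over the 3 groups was 0.0762 (0.229 after adjustment over 3 readouts). The smallest possible is 0.00952, since WT and YAP3d both had 2 libraries here and swapping their labels leaves the statistic unchanged. All 5 induced libraries tested lay above both WT libraries. That order did not hold with 2 genes in place of 3, where WT 2 was at 48.4% and YAP3d 2 at 39.0% (exact permutation p = 0.210), nor without carriers, where they were at 16.7 and 14.3%. YAP7d 1, however, lay below both YAP3d libraries. Unthinned, the means were 57.1% in WT, 90.8% in YAP3d and 81.4% in YAP7d, so that YAP3d was highest. At a depth of 1500 UMIs the exact permutation p was 0.00952, the smallest possible, and without carriers it was 0.114. The same count gave 14.3 and 15.2% of C1q-high macrophages in WT, 62.5 (5 of 8 cells), 49.1, 29.4 and 23.7% in YAP3d, and 71.9, 65.6 and 59.4% in YAP7d livers. Of cells outside the rule with 3 or more of the neutrophil genes it gave 5 of 10 in WT 2 (50%), 15 of 24 in YAP3d 4 (62.5%) and 89 of 186 in YAP7d 3 (47.8%), the libraries with 10 or more of them. Patrolling monocytes, which are known to divide little, reached 4 of 16 cells in WT 2 (25%), 0 of 7 in YAP3d 2, 3 of 10 in YAP3d 4 (30%) and 9 of 27, 1 of 5 and 12 of 59 in the YAP7d libraries (33.3, 20 and 20.3%).

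Of 30 genes of G2 and mitosis 13 passed the filter on low counts. A gene that passed it only through the YAP7d libraries, such as Mki67 and Ube2c, had to be higher there, so the counts and medians of these 13 are a description. In YAP7d 12 were higher than in WT and 13 higher than in YAP3d, with medians of 2.91 and 1.82 and 0 called. For 3 genes a group was at 0 in the first of these comparisons, and with their folds set to the bound that 3 counts give, the median was 0.98. Without carriers 2 genes could be tested, with medians of -0.49 and 0.42. Hmgb2, a chromatin protein of dividing cells, was at 391 and 351 CPM in WT, at 427, 328, 247 and 335 in YAP3d, and at 651, 923 and 598 in YAP7d livers, and the YAP7d libraries lay above all 6 others (0.98 ± 0.29 against WT and 1.15 ± 0.28 against YAP3d, edgeR adjusted p = 0.393 and 0.723). With C1q counts of 0 both differences turned, to -0.64 and -0.35, but WT 2 and YAP7d 1 were then the only libraries of their groups in the fit. It was found in 91.0% of the monocytes. Mki67, the proliferation antigen, was found in 15 of the 401 cells, with 27, 12 and 14 counts in YAP7d and 0 in every other library. Of those, 20 and 11 counts in YAP7d 1 and YAP7d 2 were in 1 cell each. Ube2c, which drives the exit from mitosis, had 73, 14 and 68 counts in YAP7d and 0 to 4 in the others, with 57 of the 73 and all 14 in 1 cell each. Stmn1, a tubulin regulator, was at 89.5, 198 and 132 CPM in YAP7d and 0 to 28.0 in the others, and 82.1% of its counts were in carriers. Mki67, Ube2c and Stmn1 were chosen after their values were seen. Camp and Ngp, granule genes of immature neutrophils, had 1279 and 1564 counts in YAP7d 3 and 0 to 2 in each other library, beside the neutrophil genes of that library.

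Immediate early and heat shock genes were lower in both induced groups than in WT. All 20 were tested. In YAP7d all 20 were below WT (median -0.72, 13 without overlap) and in YAP3d 18 were (median -0.48, 11 without overlap). In YAP7d 18 were below YAP3d (median -0.26), and 3 (15%) did not overlap, against 17.0% of all genes, with 0 called in any comparison. These genes are known to respond to tissue dissociation, and handling cannot be told apart from the groups here. Junb was at 2569 and 2855 CPM in WT, 1447 to 2527 in YAP3d and 1433 to 1735 in YAP7d livers (-0.73 ± 0.30, edgeR adjusted p = 0.636). Hspa8, a chaperone, was at 3658 and 3599, 2755 to 4937 and 1944 to 2840 CPM (-0.64 ± 0.23, edgeR adjusted p = 0.545). Dusp1, a phosphatase that ends MAP kinase signalling, was at 1284 and 1740, 710 to 2035 and 715 to 1178 CPM. Fos was at 1536 and 3066, 1630 to 2888 and 1189 to 1913 CPM, with overlap. Without WT 2 the median of the list was -0.33, beside a median of all genes of 0.39.

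Genes of the respiratory chain and the ribosome lay higher in YAP7d livers than in WT. Of 53 respiratory chain genes 46 were higher in YAP7d than in WT (median 0.30, 26 higher without overlap) and 40 in YAP3d (median 0.18), with 0 called. Cox4i1 was at 1145 and 1200 CPM in WT, 710 to 1280 in YAP3d and 1335 to 1469 in YAP7d livers. Of 23 ribosomal genes 21 were higher in YAP7d than in WT (median 0.36, 12 higher without overlap) and 20 in YAP3d (median 0.15), where 4 of the 23 (17.4%) did not overlap, against 31.0% of all genes. Of 14 glycolytic genes 9 were higher (median 0.31), and Gapdh was at 838 and 879, 586 to 1380 and 1067 to 1583 CPM (0.70 ± 0.29, edgeR adjusted p = 0.638).

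Chemokines, cytokines and the genes of recruitment were in their majority lower in YAP7d than in WT. Of 17 cytokine genes 3 were higher and 14 lower in YAP7d than in WT (median -0.31), and of 22 recruitment genes 8 and 14 (median -0.09). Ccl6, a chemokine of myeloid cells, was at 2234 and 1292 CPM in WT, 802 to 1032 in YAP3d and 1312 to 1386 in YAP7d livers, and the 4 YAP3d libraries lay below all 5 others (-0.82 ± 0.30 against WT, edgeR adjusted p = 1). Ccl3 was at 1619 and 638, 309 to 952 and 496 to 845 CPM, and Ccl4 at 558 and 1128, 216 to 1208 and 856 to 1247 CPM. Csf1r, the receptor that monocytes and macrophages need for survival, was at 558 and 249, 283 to 741 and 287 to 390 CPM. Tgfbi, a matrix protein induced by TGF-beta, was at 307 and 473 CPM in WT, at 853, 872, 679 and 454 in YAP3d, and at 818, 797 and 910 in YAP7d livers, and both WT libraries lay below the YAP7d libraries (1.05 ± 0.34, edgeR adjusted p = 0.451). Of the 6 tissue repair genes tested, to which it belongs, 5 were higher in YAP7d than in WT (median 0.80). Of 12 genes of lipid-associated macrophages 7 were higher and 5 lower (median 0.13). Lgals3, a galectin, was at 2345 and 2103, 1772 to 2644 and 2362 to 3044 CPM. Of 9 macrophage genes 6 were higher (median 0.17). Cd5l, a Kupffer cell gene chosen after its values were seen, was at 0 and 4.22, 0 to 15.9 and 40.7 to 102 CPM in the monocytes, and at 2226 CPM in the C1q-high macrophages over all libraries, beside C1q at 1.65 to 2.68 counts per 10000 UMIs in the YAP7d monocytes and 0.478 to 1.35 in the others.

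**Figure D4:**
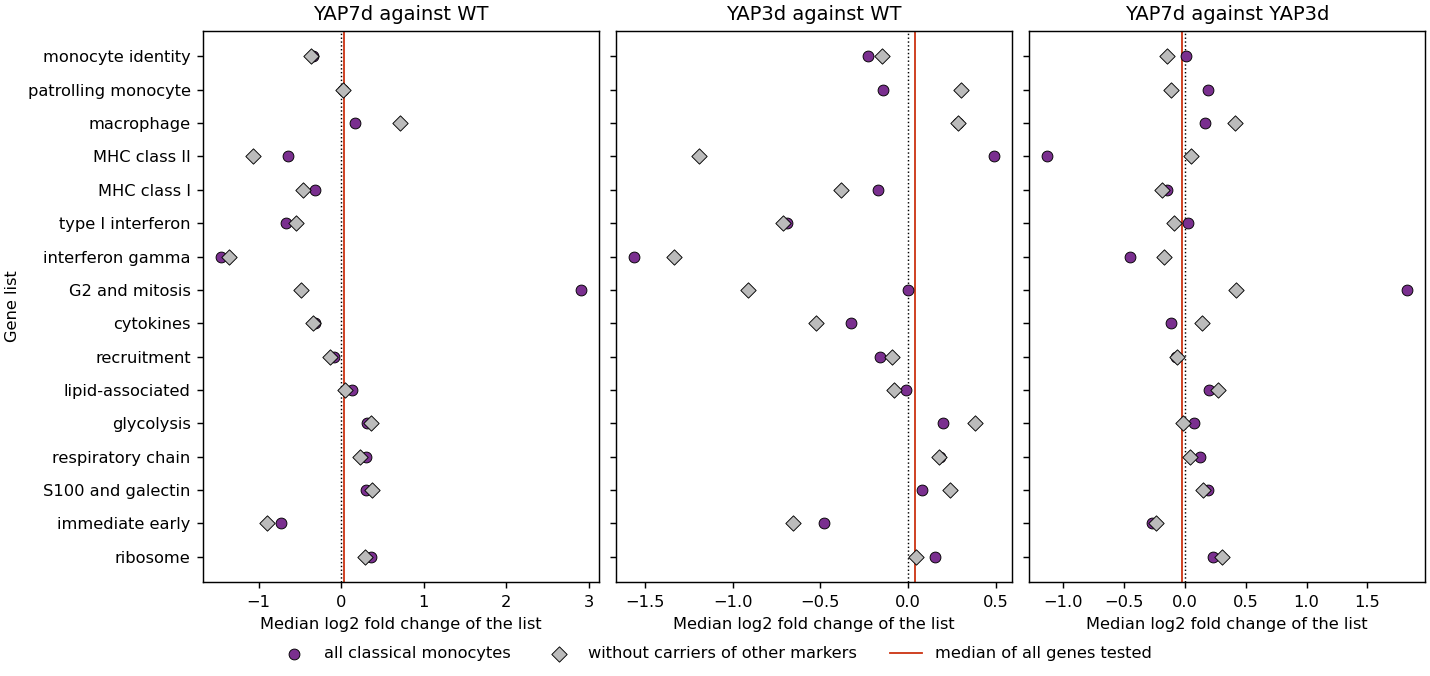
Median log2 fold change of 16 gene lists (y axis) in the 3 comparisons (panels), over all classical monocytes (circles) and without carriers of other markers (diamonds). The red line is the median of all genes tested. The interferon gamma list lay at -1.45 and -1.36 against WT at 7 days. G2 and mitosis genes had medians of 2.91 with carriers (0.98 with groups at 0 set to their bound) and -0.49 without them (2 genes left). MHC class II genes between YAP7d and YAP3d had medians of -1.13 and 0.05.

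The change from YAP3d to YAP7d was also compared with that in the C1q-high macrophages of the same livers, with the library as a block. Of 7280 genes edgeR called 3 (0.0412%): Saa3, an acute phase protein, Lrg1, a secreted glycoprotein, and Prg4, a lubricant of serous surfaces. They were too low to be tested in monocytes alone, at 0 to 50.4 CPM, and entered the test through macrophages of few libraries, so the calls show no change in monocytes. Saa3 was at 1354 CPM in the macrophages of WT 2, at 158 in YAP3d 2 and at 0 to 8.80 in the other libraries. Prg4 was at 1150, 226 and 0 to 8.80 CPM, and Lrg1 at 180, 65.5 and 0 to 6.26 CPM. In the macrophages alone the log2 fold changes between YAP7d and YAP3d were -4.99 for Saa3, -3.45 for Lrg1 and -8.04 for Prg4 (edgeR adjusted p = 0.478, 0.628 and 0.271). The fitted differences, monocytes minus macrophages, were 8.74 ± 0.82, 4.62 ± 0.71 and 12.3 ± 1.96 on the log2 scale (SE, edgeR adjusted p = 6.17e-05, 0.0222 and 0.0309), and since groups were at or near 0 they depend on the prior count. These 3 genes were chosen by their call.

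The changes from WT were compared in the same way, and both use the same 2 WT libraries. Between YAP7d and WT edgeR called 16 of 7280 genes (0.22%), of which 14 had a positive and 2 a negative difference, and 11 of the 16 were too low to be tested in monocytes alone. In the macrophages alone 8 of the 16 passed the test. The 12 endothelial genes summed to 4274 and 3346 CPM in the macrophages of WT, to 324, 662, 5000 and 4090 in those of YAP3d, and to 221, 107 and 345 in those of YAP7d livers, and their part in these calls was not tested. Il1rn, whose WT counts lay mostly in 1 cell of each library, and Hbegf, a growth factor that binds the EGF receptor and one of the 11, had the negative differences, -3.95 ± 0.64 and -4.45 ± 0.79 on the log2 scale (SE, edgeR adjusted p = 0.00850 and 0.0125). Saa3, Lrg1 and Prg4 were again called, at 8.79, 8.62 and 9.70, beside log2 fold changes in macrophages of -8.10, -5.18 and -10.45. The other positive differences were those of Cxcl1, a chemokine that draws neutrophils, Ednrb, F5, Padi4, Serpinb1a, Serpinb2 and Timp2, all too low to be tested in monocytes alone, and of Ecm1, Icam2, Trf and Wfdc17. Between YAP3d and WT it called 1 gene (0.0137%), Dusp2, a phosphatase of MAP kinases, with a difference of -3.57 ± 0.57 (edgeR adjusted p = 0.0438), beside log2 fold changes of -1.14 in monocytes and 2.38 in macrophages that did not pass the test (edgeR adjusted p = 1 and 0.999). These genes too were named after their values were seen, and fitted differences of genes near 0 in a group depend on the prior count.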

How the data were processed

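The authors deposited a table of raw UMI counts, 27998 genes by 8562 cells from 9 libraries, made per the labels with Cell Ranger on mm10 from 10x 3′ libraries (v2 chemistry per the study's methods). Seurat 2 is named for later steps. The library was read from the cell name, and 0 columns stayed unmapped. The 9 libraries held 63380159 UMIs. Cells with 200 or more genes were kept (35 were not), and Scrublet in scanpy 1.11.5 marked doublets, which were kept. The members, gene lists and tests were chosen with earlier results of these data known.

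UMIs of the monocytes were summed per library, and CPM are counts per 1000000 of these sums. Libraries with 5 or more monocytes entered edgeR 4.0.16 (quasi-likelihood test, TMM, filterByExpr, 1 fit over all groups, Benjamini-Hochberg adjustment over all genes, threshold 0.05) in R 4.3.3. DESeq2 1.42.0 was an alternative. Errors of fold changes are SE. Shares were compared by exact permutation tests over libraries, two-sided for pairs of groups and on the between-group sum of squares for all 3. Intervals are exact (Clopper-Pearson, scipy 1.17.1), and they and the limit of 3 counts cover counting error only. The scripts were tested on simulated data. Genes were named as the 4 highest by mean CPM of each list, as those past the threshold (none in the monocytes alone), or, where said and for the genes DESeq2 or the comparison with macrophages called, after their values were seen. Promoters are from RefSeq, GRCm38.p6, matched by symbol. Thinning, other limits of the rule, other filters, the replicate block and leaving out each library were tried as alternatives, and carriers of other markers were left out as an alternative chosen after seeing the data.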

Additional observations from a re-analysis of the deposited data

Results flagged for a closer look

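The share of classical monocytes in YAP3d 2, 13.8%, stood far from the other 3 YAP3d livers (0.948 to 1.42%). Its gap to the nearest of them was 0.963 of the whole range of the group, above Dixon's limit of 0.829, which chance passes in about 1 of 20 groups. Without it the YAP3d mean was 1.16%.

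By edgeR's test of the difference, the fitted change from YAP3d to YAP7d in classical monocytes minus that in C1q-high macrophages was 8.74 on the log2 scale for Saa3, 4.62 for Lrg1 and 12.3 for Prg4. All 3 were too low to be tested in monocytes alone and entered through macrophages of WT 2 and YAP3d 2, so the values depend on the prior count and show no change in monocytes. Without YAP3d 2, where these genes were highest among the induced macrophages, 32 genes were called in place of 3, and without WT 2 1 gene was.

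By the same test the change from WT to YAP7d differed between both cell classes for 16 genes, by 10.29 on the log2 scale for Cxcl1, 9.70 for Prg4, 8.79 for Saa3, 8.62 for Lrg1, 6.77 for F5, 6.76 for Serpinb2, 6.34 for Padi4, 6.06 for Serpinb1a, 5.74 for Ednrb, 3.92 for Ecm1, 3.83 for Timp2, 3.56 for Icam2, 2.38 for Wfdc17, 2.31 for Trf, -3.95 for Il1rn and -4.45 for Hbegf. Of these, 11 were too low to be tested in monocytes alone, so their values depend on the prior count. The change from WT to YAP3d differed for Dusp2 (-3.57).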

How the results depend on the processing

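The share of classical monocytes missed the threshold under all alternatives, and was higher in YAP7d than in WT under each (exact permutation p = 0.0571 to 0.795 without 1 library). YAP7d minus YAP3d turned from 3.64 to -1.84 percentage points with C1q counts of 0, and YAP3d minus WT from 2.74 to -0.42 without YAP3d 2. Monocytes per C1q-high macrophage gave an exact permutation p = 0.0373 with C1q counts of 0, and the difference between YAP7d and WT reversed with no C1q limit (p = 0.748), without WT 2 (p = 0.586) and without YAP7d 2 (p = 0.871). Without 1 library p was 0.375 to 0.871. The cycling share gave an exact permutation p = 0.00952 at 1500 UMIs, 0.210 with 2 genes in place of 3 and 0.0667 to 0.333 without 1 library.

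Against 0 genes by edgeR in YAP7d against WT, YAP3d against WT and YAP7d against YAP3d, the counts were 97, 24 and 44 with no filter, 17, 18 and 1 with C1q counts of 0, 9, 0 and 3 with every library, 10, 0 and 0 with the groups compared alone, 1, 0 and 2 with 4 of the 5 genes, 7, 1 and 0 without carriers, and 15, 0 and 0 with DESeq2. Without 1 library they were 0 to 22, 0 to 5 and 0 to 3. The first was 22 without YAP3d 2, 18 without YAP3d 4, 4 without YAP7d 1, 3 without WT 2 and 1 without YAP7d 3. The causes were not tested. With C1q counts of 0 WT 2 and YAP7d 1 stood alone in their groups, on 1 residual degree of freedom. With 4 of the 5 genes WT 2 stood alone in WT. Leaving out 1 of the WT or YAP3d libraries also left 1 in that group. The spread within a group of 1 library cannot be measured, so no conclusion is drawn from counts that compare such a group. With the replicate block the counts were 85, 59 and 22, on 1 residual degree of freedom. Of 4 same-numbered pairs 2 had a correlation of deviations from group means above 0.1 (-0.16 to 0.12). With 2 libraries in WT and in YAP3d these deviations mirror each other within the group. This check therefore cannot decide whether same-numbered libraries were paired. The difference from macrophages in the YAP7d-YAP3d change gave 27 genes with no filter and 1 to 32 without 1 library. In the YAP7d-WT change it gave 75 with no filter and 7 to 53 without 1 library, against 16 (53 without YAP3d 4, 46 without YAP3d 2, 30 without YAP7d 1, 27 without YAP7d 2 and 7 without WT 2). In the YAP3d-WT change it gave 15 with no filter, 0 with 10 or more cells of both classes, 3 with macrophages of 30 or more C1q counts and 0 to 16 without 1 library, against 1 (16 without YAP3d 4 and 0 without WT 1). The test of these changes from WT was added after seeing the data.

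Of 491 values of named genes under alternatives 419 kept direction and side of the threshold, 62 passed it newly and 10 reversed. The reversed values were 0.021 for Lyz2 in YAP3d against WT with C1q counts of 0, 1.72 for Gbp2 and 0.33 for Il1rn in YAP3d against WT and 1.16 for Serpina3g in YAP7d against WT with 4 of the 5 genes, and -0.64 and -0.35 for Hmgb2 in YAP7d against WT and YAP3d with C1q counts of 0. In these fits WT 2 stood alone in WT, and with C1q counts of 0 YAP7d 1 also stood alone in its group. With the block H2-Ab1, Cd74 and Cd209a in YAP7d against YAP3d were at 0.35, 0.43 and 1.28, and Cd209a was at -4.29 without YAP3d 2 and 1.81 without YAP3d 4.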
